A study of Homo sapiens with 7 samples.

Results

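ZNF143 hub anchors are the DNA segments at which many chromatin loops bound by the zinc-finger protein ZNF143 end together. They were chosen by their degree in the ZNF143 loop list of wild-type HEC-1-B cells, where degree is the number of loop ends that overlap an anchor by at least 1 base. Anchors with a degree of 8 or more were called hubs, which gave 503 of the 9711 anchors of that list (5.18%). None of the 9711 anchors overlapped another, so merging left their number as deposited. The degree in that list therefore defines the hubs and is only described, while the other 6 loop lists were not used to choose them.

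The loops were measured by HiChIP, an assay that ligates DNA ends lying close together in fixed nuclei and enriches the ligated DNA with an antibody against a chromatin protein. The cells were HEC-1-B, which is a line from a human uterine adenocarcinoma, and edited lines made from it, with 7 libraries in all. Wild-type cells were assayed with antibodies against ZNF143, CTCF and RAD21, and cells in which ZNF143 was deleted (ZNF143KO) with those against CTCF and RAD21. CTCF-AID cells, in which CTCF carries a tag that makes it degradable when auxin (IAA) is added, were assayed with the ZNF143 antibody at 0 h and after 24 h of auxin. The tag works only in cells that also express TIR1, a plant protein that recognises it, and the labels do not say how many clones of either edited line were used. Neither the loss of ZNF143 nor that of CTCF was checked from these lists. Each group held 1 library, so nothing below has a replicate check and no p-value is given. The 95% intervals are exact, cover counting error in those libraries only, and treat anchors and loops as if they were independent, which neighbouring loops are not.

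ZNF143 binds DNA through a row of zinc fingers and is best known as an activator at promoters, among them those of small nuclear RNA genes and of many housekeeping genes. CTCF is another zinc-finger protein, and it stops the cohesin ring, of which RAD21 is a subunit, as cohesin extrudes a loop of chromatin. CTCF loops typically join a few strong sites, whereas promoters and enhancers of active genes can contact several partners within a gene-dense region. An anchor with many ends is one that was seen ligated to many different partners, in different cells or together in the same cell, which this assay does not separate.

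The loop lists differed in size and in layout. They held 10804 to 40405 loops with total counts of 33460 to 143119, counts were whole numbers of at least 2, and spans ran from 20 kb to 2 Mb. A degree of 0 in a list thus means that no loop with 2 or more counts was listed there, or that no anchor was called, and not that there was no contact. To allow for list size, degrees were divided by the number of loop ends of their list wherever a scaled ratio is given. The wild-type ZNF143 list and both ZNF143KO lists had 7 columns and the other 4 lists had 8, so effects of list layout and of ZNF143 deletion cannot be told apart. Both CTCF-AID lists came in the same layout. In them 89.5% of loops at 0 h and 86.8% at 24 h had an even count, against 68.1% to 74.6% in the other 5 lists. Whether read pairs were counted differently there is not known, so counts, and the lowest listed count of 2, may not be comparable between the CTCF-AID lists and the others.

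In the wild-type ZNF143 list the 503 hubs held 7612 of 23962 loop ends (31.8%). Their median degree was 12, with quartiles of 9 and 18, and the highest was 58. Of the hubs, 106 had 20 or more ends, 41 had 30 or more and 12 had 40 or more. Hubs were 1.20 to 5.72 kb wide with a median of 2.01 kb, against 1.78 kb for the other anchors. Width and degree were almost unrelated across hubs (Spearman's rho 0.011, n = 503). The threshold cuts a continuous scale. The 88 anchors of degree 7, just outside it, had a median summed count of 25 and the 80 anchors of degree 8 one of 30.5, and 29 of each lay on chromosome 19. A wild-type CTCF end was present at 45.5% of the former and 50.0% of the latter.

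Chromosome 19 carried 206 of the 503 hubs (41.0%), although it carried 12.1% of all anchors. On that chromosome 17.6% of anchors were hubs (15.4 to 19.9), compared with 3.48% elsewhere (3.10 to 3.89). Chromosome 17 followed with 37 hubs (4.62% of its anchors), chromosome 1 with 34 (3.53%), chromosome 16 with 32 (6.63%) and chromosome 3 with 27 (3.66%). There was none on chromosome 4, among 65 anchors, or on chromosome X, among 78. Over all hubs the median gap to the nearest other hub was 95.8 kb, with quartiles of 23.5 and 461 kb. Another hub lay within 100 kb of 253 hubs (50.3%), and 75 had none within 2 Mb. These gaps were computed neither with chromosome 19 apart nor for the other anchors. In the list that chose the hubs, ends lay on both sides at 496 of 503, and the busier side held a median of 62.5% of a hub's loops.

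The 12 hubs of highest degree show the range of profiles. The highest of all, chr19:49147532-49150488, had 58 ends in the wild-type ZNF143 list, 11 with CTCF and 6 with RAD21 in wild-type cells, 8 and 3 with CTCF and RAD21 in ZNF143KO cells, and 84 and 75 in CTCF-AID cells at 0 h and 24 h. It was joined to 42 other hubs, the most of any. The hub chr19:49297700-49299687 had a similar profile, with 46, 6, 8, 5, 5, 68 and 74 ends in the same order of lists. Both belong to the same crowded stretch of chromosome 19 and carried CTCF and RAD21 ends in each list tested.

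Other hubs of the same rank had no such ends. The hub chr19:47353490-47355035 had 46 ends with ZNF143 in wild-type cells, none in the 4 CTCF and RAD21 lists, and 89 and 65 in the CTCF-AID lists. The hub chr19:56651574-56654677 had 44, again none in those 4 lists, and 72 and 68. Chr19:49222747-49225635, which lies between the first 2 hubs named above, had 43 ends with ZNF143 in wild-type cells, 1 with CTCF in ZNF143KO cells and none in the other 3 CTCF and RAD21 lists, then 81 and 78 in the CTCF-AID lists, where the last is the highest degree of any hub at 24 h. A high ZNF143 degree thus came both with and without listed CTCF loops, even between neighbours.

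The remaining hubs of the 12 lay on chromosomes 16, 17 and 19. Chr17:73779486-73781987 and chr17:73850841-73852478 each had 44 wild-type ends and were joined to each other but to no further hub. They had 2 and 2 CTCF ends in wild-type cells, and 53 and 47 ends at 0 h against 38 and 45 at 24 h. Chr16:67839297-67841770 had 43, 0, 0, 0, 1, 46 and 30 ends in the order given above. Chr19:55627847-55630996 had 42, 0, 0, 1, 0, 67 and 49. The last 3, chr19:45906702-45909809, chr19:45987998-45989832 and chr19:4790697-4792330, had 41, 40 and 40 wild-type ZNF143 ends and 5, 8 and 2 wild-type CTCF ends. At 24 h they had 53, 48 and 46. All 12 hubs had at least 30 ends after 24 h of auxin.

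**Figure D1:**
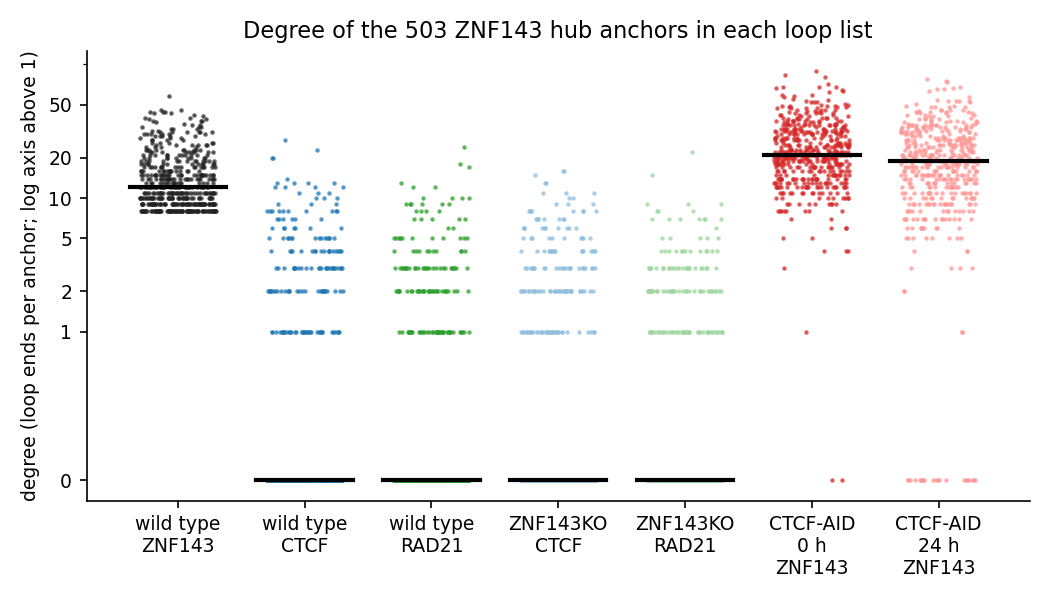
Degree (loop ends per anchor, log axis above 1) of the 503 ZNF143 hub anchors in each of the 7 loop lists, 1 point per hub, with the median as a black bar. The medians are 12 in the wild-type ZNF143 list that chose the hubs, 0 in the 4 CTCF and RAD21 lists, 21 in CTCF-AID cells at 0 h and 19 at 24 h.

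The first comparison asked how far ZNF143 hubs were also ends of CTCF and cohesin loops. Most were not. In wild-type cells 168 hubs (33.4%, 29.3 to 37.7) had at least 1 CTCF loop end, while 53.4% of all 9711 anchors and 54.5% of the anchors that were not hubs did. A RAD21 end was present at 148 hubs (29.4%, 25.5 to 33.6), against 49.7% of all anchors and 50.8% of the others. The intervals for hubs and other anchors did not overlap for either protein. The share with a CTCF end was 51.8% for anchors of degree 1, 61.0% for a degree of 2 to 3, 51.7% for 4 to 7 and 33.4% for hubs, so that hubs had the lowest share of the 4 classes and a degree of 2 to 3 the highest. On chromosome 19 it was 30.6% at hubs (24.4 to 37.4) and 39.9% to 47.8% in the 3 lower classes, and on the other chromosomes 35.4% (29.9 to 41.1) and 52.6% to 63.2%. On chromosome 19 the interval for hubs overlapped that for degree 1 (34.8 to 45.3). With anchors extended by 5 kb on each side, the share was 48.9% at hubs and 60.7% at the other anchors.

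Of the 503 hubs, 127 had both CTCF and RAD21 ends in wild-type cells (25.2%), 41 CTCF ends only, 21 RAD21 ends only, and 314 neither (62.4%). The corresponding shares of the other anchors were 43.8% with both and 38.5% with neither. Counting the ZNF143KO lists too, 277 hubs (55.1%) had no end in any of the 4 CTCF and RAD21 lists, against 31.95% of the other anchors, and 80 hubs had an end in all 7 lists (15.9%, against 11.6% of all anchors). The hubs held 2.00% of all loop ends of the wild-type CTCF list (1.86 to 2.14) and 1.65% of those of the RAD21 list (1.51 to 1.79). Of the ends that fell at any wild-type ZNF143 anchor they held 4.48% and 3.97%, somewhat below their 5.18% of anchors. Mean CTCF degree was 1.53 at hubs and 1.79 at the other anchors, and mean RAD21 degree 1.10 and 1.46.

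The hubs that did carry CTCF ends could carry many. A CTCF degree of 8 or more was found at 32 hubs (6.36%), between the 2.45% of anchors of ZNF143 degree 1 and the 11.6% of anchors of degree 4 to 7, and near the 6.87% of those of degree 2 to 3. The highest was chr12:52416866-52420199, with 27 CTCF and 24 RAD21 ends beside 8 ZNF143 ends. In ZNF143KO cells it had 11 and 22, the latter the highest RAD21 degree of any hub there. The highest CTCF degree of a hub in ZNF143KO cells was 16, at chr17:46100314-46105226 and, tied with it, at chr6:43740060-43743914. In wild-type cells the former had 20 CTCF and 18 RAD21 ends beside 12 ZNF143 ends. The latter had 14 and 12 beside 8. At each of these named hubs, the wild-type CTCF and RAD21 degree exceeded the ZNF143 degree, the reverse of the order at the top ZNF143 hubs. Across all hubs ZNF143 degree had a rank correlation of -0.13 with CTCF degree (n = 503 anchors, description only).

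**Figure D2:**
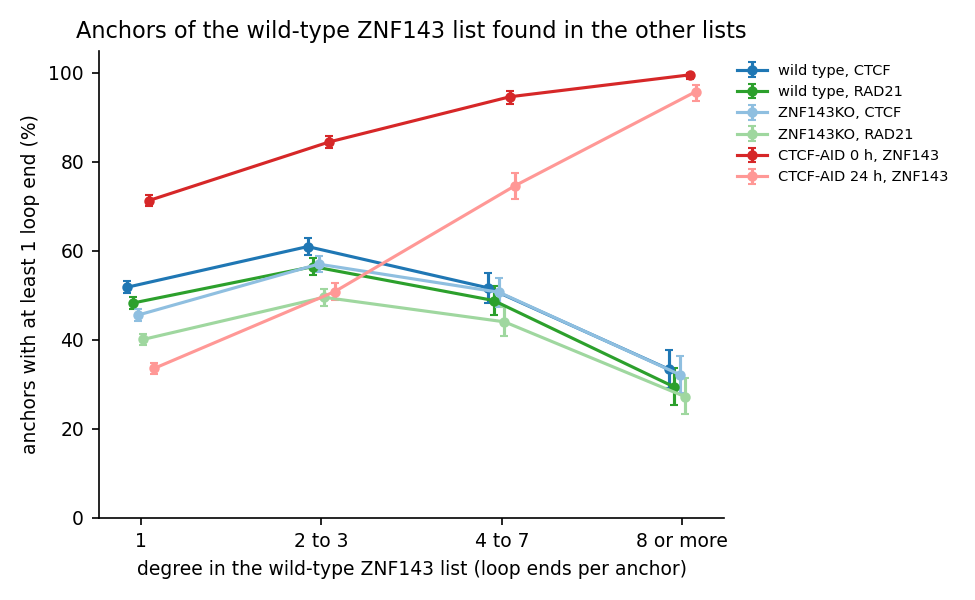
Share of wild-type ZNF143 anchors (%) with at least 1 loop end in each of the other 6 lists, by their degree in the wild-type ZNF143 list, with exact 95% intervals. With CTCF and RAD21 the hubs (8 or more) are lowest, 33.4% and 29.4% in wild-type cells, while with ZNF143 in CTCF-AID cells the share rises with degree to 99.6% at 0 h and 95.8% at 24 h.

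Applied to each list in turn, the same rule gave 596 CTCF hubs and 389 RAD21 hubs in wild-type cells. Of the 503 ZNF143 hubs, 31 overlapped a CTCF hub (6.16% of the ZNF143 hubs and 5.20% of the CTCF hubs) and 20 a RAD21 hub (3.98% and 5.14%). Chromosome 19 held 41.0% of the ZNF143 hubs but 8.39% of the CTCF hubs and 6.43% of the RAD21 hubs. Degree also reached higher with ZNF143, with a maximum of 58 against 27 for CTCF and 24 for RAD21, although the ZNF143 list was the shortest of the wild-type lists. The overlap was small, but not smaller than over all anchors: a CTCF degree of 8 or more was found at 4.76% of all ZNF143 anchors and a RAD21 degree of 8 or more at 2.88%, against 6.36% and 3.98% of the hubs.

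The second comparison was between cells with and without ZNF143, for the CTCF and RAD21 loops that end at its hubs. CTCF ends were present at 168 hubs in wild-type cells and 162 in ZNF143KO cells (32.2%, where 48.6% of all anchors had one). Of these, 137 hubs had ends in both lists, 31 only in wild-type cells and 25 only in ZNF143KO cells. Of the hubs with a CTCF end in wild-type cells 81.5% had one in ZNF143KO cells (74.8 to 87.1), near the 77.9% of all such anchors. In the other direction, 84.6% of hubs with one in ZNF143KO cells had one in wild-type cells, near the 85.7% of all such anchors. RAD21 ends were present at 148 and 137 hubs (27.2%, against 42.5% of all anchors), with 106 in both, 42 only in wild-type cells and 31 only in ZNF143KO cells. Of the hubs with a RAD21 end in wild-type cells 71.6% had one in ZNF143KO cells, and so had 71.6% of all such anchors. Of those with one in ZNF143KO cells 77.4% had one in wild-type cells (69.4 to 84.1), against 83.7% of all such anchors.

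Summed over hubs, CTCF ends numbered 771 in wild-type and 631 in ZNF143KO cells. Relative to list size this was a ratio of 1.01 (0.911 to 1.13), and the other anchors gave 0.987 (0.964 to 1.01). For RAD21 there were 553 and 409 ends, a ratio of 1.15 (1.01 to 1.31) against 1.03 (1.00 to 1.06) at the other anchors. The intervals for hubs and other anchors overlapped for both proteins. Without scaling, the ratios at hubs were 0.818 for CTCF and 0.740 for RAD21, both below 1, and those of the lists as wholes were 0.808 and 0.644. The RAD21 ratio at hubs thus turned from above to below 1 without scaling.

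Single hubs moved in both directions. Among the 69 hubs with at least 5 CTCF ends in wild-type or ZNF143KO cells, the scaled degree was at least 2-fold higher without ZNF143 at 6 (8.70%, against 9.58% of all such anchors) and at least 2-fold lower at 13 (18.8%, 10.4 to 30.1, against 13.6%). Among 38 hubs tested for RAD21, 2 were higher (5.26%, against 8.68% of all such anchors) and 1 was lower (2.63%, 0.067 to 13.8, against 13.4%). The intervals of all 4 shares included the share over all anchors. Without scaling, 5 hubs were higher (7.25%, against 5.54% of all such anchors) and 21 lower (30.4%, against 24.3%) for CTCF. For RAD21 none was higher (2.27% of all such anchors were) and 12 were lower (31.6%, against 36.0%). A minimum of 10 ends left 0 higher and 3 lower for CTCF, and a fold of 1.5 gave 14 and 21. The share over all anchors was not computed under these settings, so these counts have no background.

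The hub with the highest scaled ratio of CTCF ends was chr12:56708926-56710885, with 0 in wild-type and 6 in ZNF143KO cells beside 30 ZNF143 ends. Chr7:100471900-100473527 went from 0 to 5, and chr3:183734323-183736549 from 2 to 8. In the other direction, chr9:130496167-130498432 went from 8 CTCF ends to 0. Chr3:47554231-47555636 and chr19:42746154-42749865 each went from 5 to 0. Each of these differences rests on at most 8 loops.

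For RAD21 the highest scaled ratios were at chr3:50262813-50265685, with 5 ends in wild-type and 8 in ZNF143KO cells, at chr19:48246420-48249503, with 5 and 7, and at chr3:50309918-50312663, with 12 and 15. The lowest was at chr19:2950335-2952197, with 10 and 0 ends, where CTCF ends went from 11 to 2 as well. It was followed by chr17:46336309-46341638, with 7 and 2, and chr19:36207306-36209528, with 9 and 3.

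The third comparison was between CTCF-AID cells at 0 h and after 24 h of auxin, and it drew on neither the list nor the library that chose the hubs. At 0 h 501 hubs had ZNF143 ends (99.6%, against 78.7% of all anchors), and at 24 h 482 did (95.8%, 93.7 to 97.4), against 45.6% of all anchors and 42.8% of the other anchors. Median hub degree was 21 at 0 h and 19 at 24 h, and 481 hubs had ends at both times. The hubs held 15.3% of the ends of the 0 h list (15.1 to 15.6) and 25.4% of the ends of the 24 h list (25.0 to 25.8).

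Summed over hubs there were 12365 ends at 0 h and 10458 at 24 h, a ratio of 0.846 as listed. At the other anchors the ratio was 0.541, from 36015 to 19475 ends, and for the whole list 0.510. As listed, the degree was lower at 24 h at 360 hubs, higher at 114 and equal at 29. This split was not counted over all anchors and is only described. Relative to list size, the ratio was 1.66 at the hubs (1.62 to 1.70) and 1.06 at the other anchors (1.04 to 1.08). The value at the other anchors fell below 1 with a minimum count of 3 (0.951), with sums of counts (0.931) and with counts divided by 2 (0.946), where hubs had 1.43, 1.58 and 1.39. The ratio at the hubs was thus below 1 as listed and above 1 after scaling, and the larger share of the 24 h list at hubs is the scaled ratio in another form.

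The scaled ratio followed the wild-type degree, with 0.841 at anchors of degree 1, 1.08 at 2 to 3, 1.37 at 4 to 7 and 1.66 at hubs. It was 1.80 at hubs on chromosome 19 (1.74 to 1.87) and 1.51 elsewhere (1.46 to 1.57), and in each set it rose from class to class. Over anchors with ends at both times the ratio was 1.70 at 481 hubs (1.65 to 1.74) and 1.57 at 3827 other anchors (1.54 to 1.60). This restriction leaves out anchors with no end at 24 h, which by construction raises the ratio most where most anchors had none.

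Hub by hub, 113 of the 500 hubs with at least 5 ends at either time had a 2-fold or more higher scaled degree at 24 h (22.6%, against 19.6% of all such anchors). A 2-fold or more lower degree was seen at 24 (4.80%, 3.10 to 7.06, against 26.4%). The share that was higher was near the background and the share that was lower was below it. Without scaling, which multiplies every ratio by the same factor, 4 hubs were 2-fold or more higher (0.80%, against 2.44%) and 52 lower (10.4%, against 38.8%). The median scaled ratio was 1.67 at hubs and 1.27 over all anchors tested.

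The 21 hubs with no end at 24 h were low in rank, with 8 to 17 wild-type ZNF143 ends and a median of 8. Their median degree at 0 h was 12 and the highest 31. Of these 21, 18 had a CTCF or RAD21 end in wild-type cells, as 189 of all 503 hubs did (37.6%), and 14 lay on chromosome 19. At 9 of them an anchor of the 24 h list lay within 5 kb. Chr19:48246420-48249503 had 31 ends at 0 h and 0 at 24 h, with 7 CTCF and 5 RAD21 ends in wild-type cells. Chr19:50379217-50381057 had 31 and 0 as well but no end in any CTCF or RAD21 list. Chr19:49345278-49348903 had 24 and 0, with 6 CTCF and 8 RAD21 ends in wild-type cells. All 3 had 11 to 17 ZNF143 ends there.

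The hubs with the highest scaled ratio were of modest degree and had no CTCF or RAD21 end in any list. Chr16:30620996-30622736 had 0 ends at 0 h and 12 at 24 h, chr19:58427416-58429390 had 9 and 27, and chr19:13841912-13843331 had 9 and 20. In wild-type cells they had 8, 9 and 13 ends.

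Hubs were then divided by whether they carried CTCF or RAD21 ends in wild-type cells, which also used none of the CTCF-AID data. The 314 hubs with neither had 8037 ends at 0 h and 7077 at 24 h, a scaled ratio of 1.73 (1.67 to 1.78). The 189 hubs with either had 4328 and 3381, a ratio of 1.53 (1.47 to 1.60). At the other anchors the corresponding ratios were 1.45 (1.41 to 1.48) and 0.815 (0.795 to 0.835). Anchors with CTCF or RAD21 ends had the lower ratio in both sets, and the interval for hubs with such ends overlapped that for other anchors without them.

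Wild-type cells and CTCF-AID cells at 0 h share the antibody and have no protein removed, but this pair uses the list that chose the hubs, so its values are given without a reading. The scaled degree at hubs was 0.482 times that in wild-type cells and 0.653 times at the other anchors. With the CTCF-AID counts divided by 2 these were 0.877 and 0.707, in the opposite order. None of the 503 hubs was 2-fold or more higher (3.05% of all anchors were) and 288 were 2-fold or more lower (57.3%, against 18.6%). As listed, the degree was higher at 0 h at 450 hubs, in a list with 3.37 times as many loop ends. This count was not made over all anchors.

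Loops that joined a hub to another hub were examined next. The wild-type ZNF143 list had 1122 of them (9.36% of its loops), and a further 44.8% of its loops joined a hub to another anchor. Hub-to-hub loops numbered 1506 in CTCF-AID cells at 0 h (3.73%, 3.54 to 3.92) and 1677 at 24 h (8.15%, 7.78 to 8.53). Without chromosome 19, a choice made after seeing the data, the shares were 2.95% in wild-type cells, 0.949% at 0 h and 2.42% at 24 h. Over all chromosomes together there were more hub-to-hub loops at 24 h than at 0 h, although the whole list at 24 h had 0.510 times as many loops. With CTCF and RAD21 there were 56 and 46 in wild-type cells and 44 and 36 in ZNF143KO cells, between 0.274% and 0.333% of those lists, or 0.0715% to 0.127% without chromosome 19.

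In the 3 ZNF143 lists loops with a hub end were longer than loops without, whether or not the other end was a hub. The median span of hub-to-hub loops was 195 kb in wild-type cells, against 109.7 kb for loops with no hub end, 258 kb at 0 h against 217 kb, and 349.7 kb at 24 h against 249.6 kb. Loops from a hub to another anchor had medians of 178 kb, 299 kb and 376 kb, longer than hub-to-hub loops in both CTCF-AID lists. The mean count of hub-to-hub loops was 7.74 in wild-type cells against 2.60 for loops with no hub, 9.99 at 0 h against 2.70, and 13.1 at 24 h against 3.04. Loops from a hub to another anchor lay between them, with 4.91, 5.17 and 6.34. The 1677 loops at 24 h carried 21.3% of that list's total count. The median of each hub's longest loop was 731 kb in wild-type cells, 1585 kb at 0 h and 1588 kb at 24 h.

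The best supported hub-to-hub loop in wild-type cells joined chr17:73779486-73781987 to chr17:73850841-73852478, 70.9 kb apart. It had a count of 127 there, 111 at 0 h and 150 at 24 h, and was listed with CTCF or RAD21 only once, with 2 counts for RAD21 in ZNF143KO cells. On chromosome 1, the hub at 156736325-156738000 was joined to 156715857-156717348 with counts of 100 in wild-type cells, 321 at 0 h and 400 at 24 h, and to 156709697-156712115 with 99, 262 and 311. Neither loop was in any CTCF or RAD21 list. Chr16:67839297-67841770 was joined to chr16:67875049-67876968 with 89, 94 and 180. Chr19:45906702-45909809 was joined to chr19:45987998-45989832 with 89, 97 and 192, and this loop had 2 counts with CTCF in wild-type cells, 5 with CTCF in ZNF143KO cells and 2 with RAD21 there. Each of the 5 had a higher count at 24 h than at 0 h, in a list whose total count was 0.719 times that at 0 h.

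Few hub-to-hub loops were shared with CTCF or RAD21. Of the 1122 wild-type loops, 3.92% were found in the wild-type CTCF list and 2.94% in the RAD21 list, where a loop counts as found if both anchors overlap those of a listed loop. Loops with no hub end were found more often, 24.4% with CTCF and 22.1% with RAD21, and loops from a hub to another anchor in 5.83% and 4.40%. At a count of 10 or more, with 44 no-hub loops, the intervals for hub-to-hub and no-hub loops overlapped. With CTCF the shares there were 8.86% (5.57 to 13.2) hub-to-hub, 12.6% hub-to-other and 15.9% (6.64 to 30.1) no-hub. With RAD21 they were 7.17% (4.23 to 11.2), 10.1% and 9.09% (2.53 to 21.7). At lower counts no-hub loops had the highest share. Among loops with both anchors listed, which leaves 132 hub-to-hub loops for CTCF, the shares with CTCF were 33.3% for hub-to-hub loops and 66.1% for loops with no hub, and with RAD21 30.3% and 66.6%. Between the ZNF143 lists the order was the reverse. At 0 h 80.8% of the wild-type hub-to-hub loops were found and at 24 h 79.9%, compared with 38.5% and 19.5% of loops with no hub. Among loops with both anchors listed these were 81.9% and 89.9% for hub-to-hub loops and 54.5% and 66.4% for loops with no hub.

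In CTCF-AID cells, 1124 of the 1506 hub-to-hub loops of 0 h were found at 24 h (74.6%, 72.4 to 76.8). Of the loops from a hub to another anchor 37.8% were found, and of the loops with no hub 11.9%. The order of the 3 classes was the same within each class of count. Among loops with a count of 2 at 0 h the shares were 56.1%, 26.3% and 7.88%, and among those with a count of 5 to 9 they were 81.2%, 50.8% and 33.0%. At 10 or more the hub-to-hub loops reached 94.8%, with 62.0% (59.0 to 64.8) and 57.6% (52.6 to 62.4) for the other classes, whose intervals overlapped.

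Both anchors were listed at 24 h for 89.6% of hub-to-hub loops, 54.9% of loops from a hub to another anchor and 28.6% of loops with no hub. Among loops with both anchors listed, 83.3% (81.2 to 85.2), 68.9% (67.6 to 70.2) and 41.7% (40.7 to 42.8) were found. At a count of 10 or more these were 99.5%, 98.3% and 91.7%, with the first 2 intervals overlapping.

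**Figure D3:**
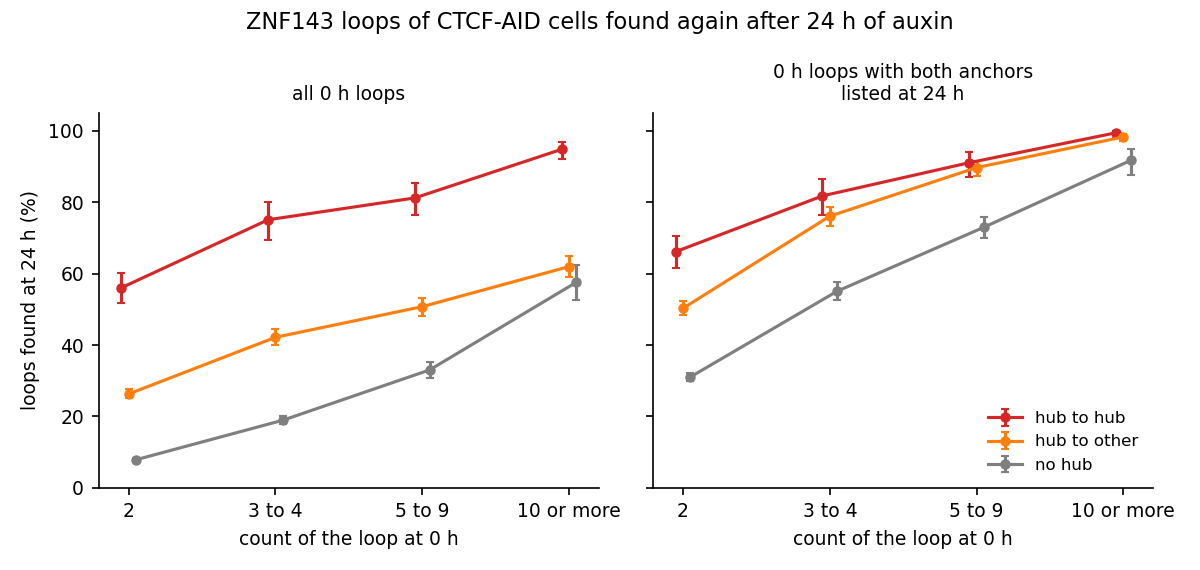
Share of the ZNF143 loops of CTCF-AID cells at 0 h (%) that were found again at 24 h, by the loop's count at 0 h and by whether its ends lay at hubs, with exact 95% intervals. Left, all loops; right, loops whose anchors were both listed at 24 h, where the gap between the classes is smaller and hub-to-hub loops reach 99.5% at a count of 10 or more.

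Counts of the loops found at both times differed between the classes as well. Among the 1124 shared hub-to-hub loops the count was higher at 24 h for 713 (63.4%) and lower for 239, with a median ratio of 1.40. Among 3540 shared loops from a hub to another anchor it was higher for 53.6%, with a median ratio of 1.20, and among 3521 shared loops with no hub for 33.3%, with a median ratio of 1.00. Summed over the shared hub-to-hub loops the count was 13521 at 0 h and 19947 at 24 h. The classes were not matched for count at 0 h. Of the shared loops, 301 hub-to-hub, 1255 hub-to-other and 1778 no-hub loops had a count of 2 at 0 h. This is the lowest listed count, so such loops could not be lower at 24 h.

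Hub pairs joined only at 24 h were longer than those joined at both times. There were 1123 pairs joined at both times with a median distance of 229.6 kb, 383 only at 0 h with 477 kb and 554 only at 24 h with 716 kb. Pairs more than 500 kb apart made up 25.6%, 48.8% and 65.5% of these sets. Of the 554 pairs joined only at 24 h, 121 were also joined in wild-type cells and 453 lay on chromosome 19.

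Because many hubs lie close to another, pairs of hubs were compared with pairs of anchors of which neither was a hub, at equal distance. In CTCF-AID cells at 24 h, 81.0% of hub pairs at 20 to 50 kb were joined, 71.2% at 100 to 200 kb, 38.3% at 500 to 1000 kb and 24.7% at 1000 to 2000 kb. Of the pairs with no hub, 14.9%, 6.85%, 1.74% and 0.697% were joined at these distances. An end at 24 h was present at 95.8% of hubs but 42.8% of the other anchors, and an anchor without one cannot be joined. The pairs were not restricted to those with both anchors listed. At 0 h the share at 20 to 50 kb was 88.7% and that at 1000 to 2000 kb 17.1%, so hub pairs were joined less often at 24 h at the shortest distances, within overlapping intervals, and more often at the longest. Pairs with no hub were joined in 31.2% of cases at the shortest and 0.878% at the longest distance at 0 h, so at both distances their share was lower at 24 h. None of these shares is scaled to list size, and the 24 h list had 0.510 times as many loop ends. In wild-type cells, where the joins are those that chose the hubs, the shares fell from 87.3% to 5.57%. In the wild-type CTCF list they fell from 9.15% at 20 to 50 kb to 1.34% at 200 to 500 kb, and none of the 942 hub pairs at 500 to 1000 kb or the 1168 beyond was joined.

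**Figure D4:**
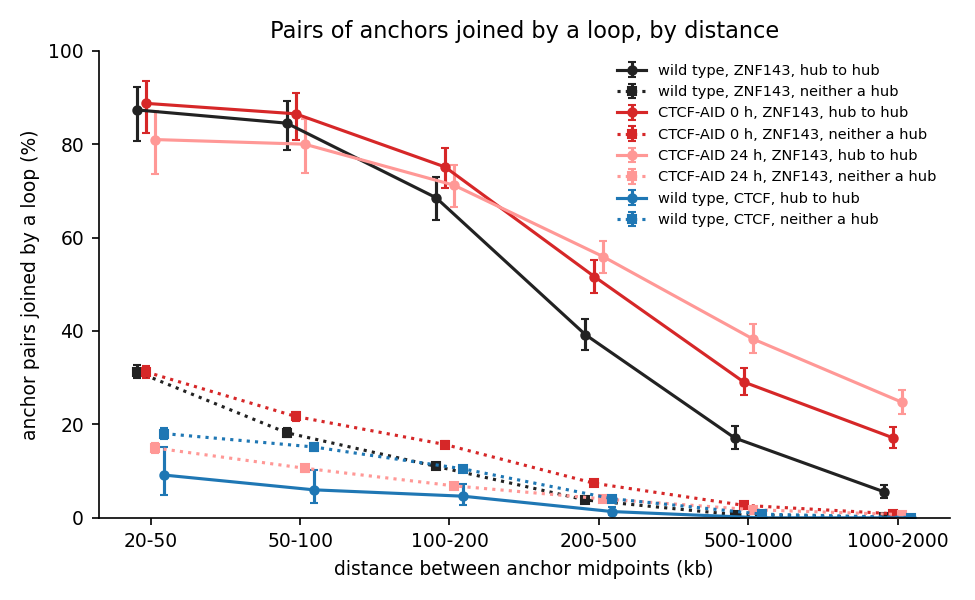
Share of anchor pairs (%) joined by a listed loop, by the distance between their midpoints (kb), for pairs of hubs (solid lines) and pairs with no hub (dotted lines) in 4 lists, with exact 95% intervals. In the 3 ZNF143 lists hub pairs lie above pairs with no hub at every distance, while in the wild-type CTCF list they lie below them up to 1000 kb, 9.15% against 18.0% at 20 to 50 kb. Pairs were not restricted to those with an end at both anchors in the list shown.

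Joined to each other, the hubs formed connected sets. In the wild-type ZNF143 list 388 hubs fell into 55 sets and 115 were joined to no other hub, of which only 3 were on chromosome 19. A hub had a median of 3 hub partners, with quartiles of 1 and 7. Of the 62 hubs with 10 or more hub partners, 59 lay on chromosome 19, as did 856 of the 1122 joined pairs. If a hub was joined to each of a pair of others, that pair was joined as well in 50.0% of cases in wild-type cells, 55.4% at 0 h and 62.8% at 24 h.

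The largest set held 90 hubs over 7.04 Mb, chr19:44098397-51143296. It had 477 joined pairs in wild-type cells, 713 in CTCF-AID cells at 0 h and 746 at 24 h. With CTCF it had 35 and 26 joined pairs in wild-type and ZNF143KO cells, and with RAD21 28 and 19. CTCF ends were present at 35 of its 90 hubs. The second set, of 42 hubs at chr19:54023365-59088201, had 222, 295 and 323 joined pairs with ZNF143 but 3 with CTCF and 2 with RAD21 in wild-type cells, and 7 of its hubs had CTCF ends.

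The 3 largest sets off chromosome 19 held 17, 16 and 11 hubs. The set of 17 hubs at chr3:47554231-52189769 had 37 joined pairs in wild-type cells, 48 at 0 h and 63 at 24 h, and 4 with CTCF. The set of 16 hubs at chr16:29686776-31472891 had 56, 63 and 77 with ZNF143 and none with CTCF or RAD21 in wild-type or ZNF143KO cells. The set of 11 hubs at chr12:56130248-57624073 had the largest share of hubs with CTCF ends of the 5 sets described, 7 of 11, and had 6 pairs joined by CTCF loops, beside 27, 29 and 29 pairs with ZNF143. In these 5 sets the number of ZNF143 pairs at 24 h was at least that at 0 h.

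**Figure D5:**
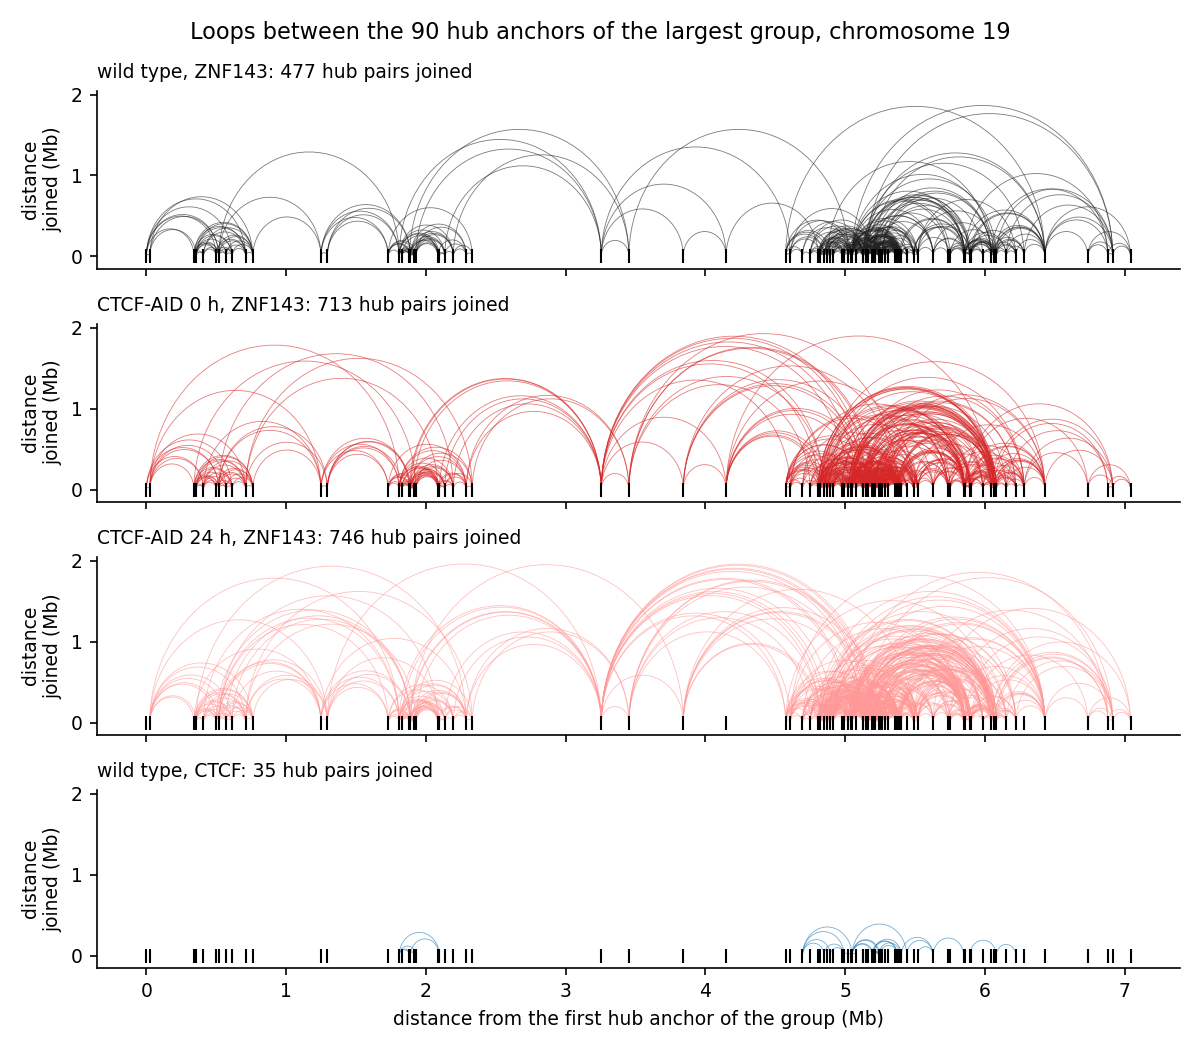
Loops between the 90 hub anchors of the largest connected set on chromosome 19, drawn as arcs over the distance (Mb) from its first hub, with arc height equal to the distance joined (Mb) and hubs as black ticks. There are 477 joined pairs with ZNF143 in wild-type cells, 713 and 746 in CTCF-AID cells at 0 h and 24 h, and 35 short ones with CTCF in wild-type cells.

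Hubs were also joined to 3537 anchors that were not hubs. Their median ZNF143 degree was 2, which the rule keeps under 8, and 40.3% of them had no other ZNF143 loop. A CTCF end was present at 51.6% of these partners (49.9 to 53.2), at 56.4% of the 5671 anchors with no hub partner (55.1 to 57.7) and at 33.4% of hubs. With RAD21 the shares were 47.3%, 52.9% and 29.4%. For CTCF and RAD21 ends these partners were nearer to the anchors with no hub partner than to the hubs.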

How the data were processed

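The authors deposited 1 list of loops per HiChIP library, each line holding a pair of anchors and a whole-number count, the unit used here; per the file values counts start at 2 and are not scaled to a common depth. Library depth, the loop caller and its filters are not given in the sources used here. The genome build is hg19 and read pairs were processed with HiC-Pro, per the submitters' processing notes. Positions are printed counted from 1, on the assumption that starts were deposited counted from 0.

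Groups came from the sample titles, with 1 library each. Degrees, overlaps of at least 1 base, shares, ratios and hub networks were computed in Python 3.11.15 with numpy 2.4.6, scipy 1.17.1 and networkx 3.6.1, and tested on simulated loop lists. Intervals are exact (Clopper-Pearson, 95%), and those of ratios come from the binomial split of the 2 sums. For 2-fold calls 0.5 was added to both degrees, among anchors with at least 5 ends in either list. Named regions are the 12 hubs of highest degree, the 3 with the highest and the 3 with the lowest scaled ratio per removal, the 3 of highest degree without CTCF and RAD21 ends, the highest in each other list and the 5 hub-to-hub loops of highest count. The joined sets were named after their values were seen. The hubs, comparisons and rules were chosen with earlier results of these data known. Genes, motifs and sequences at the hubs were planned but not analysed here, since no hg19 annotation or genome was used.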

Additional observations from a re-analysis of the deposited data

How the results depend on the processing

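Of 249 alternative values, 75 stayed within the counting interval of the reported one or within 1.5 times a count, 164 moved and 10 reversed. The number of hubs was 271 at a minimum degree of 12 and 263 at a minimum count of 3. The shares below use the changed hubs for a changed minimum degree and the 503 hubs otherwise, with the lists filtered where a minimum count is given. For a minimum degree of 6, of 12, anchors extended by 5 kb, a minimum count of 3 and omission of chromosome 19 (chosen after seeing the data for some results), in that order, the share of list ends at hubs was 3.61%, 0.803%, 2.80%, 2.45% and 1.31% with wild-type CTCF, 19.1%, 10.4%, 16.4%, 26.0% and 9.36% at 0 h, and 31.2%, 17.6%, 26.7%, 37.3% and 15.9% at 24 h. Hub-to-hub loops were 5.98%, 1.64%, 4.71%, 7.74% and 0.949% at 0 h and 12.5%, 3.86%, 9.54%, 14.1% and 2.42% at 24 h. Under the first 4 of these, hubs with a CTCF end were 38.0%, 27.7%, 48.9% and 28.2%, and with a RAD21 end 35.0%, 24.0%, 42.9% and 24.5%.

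Scaling decided the direction of several ratios. As listed, the ratio of ZNF143KO to wild type at hubs was 0.818 for CTCF and 0.740 for RAD21, and 0.662 for RAD21 at other anchors, where sums of counts gave 0.966. The 24 h to 0 h ratio at hubs was 0.846 as listed, 1.43 at a minimum count of 3, 1.58 with sums of counts and 1.39 with counts divided by 2. At other anchors it was 0.541, 0.951, 0.931 and 0.946, below 1 in each. The 0 h to wild-type ratio as listed was 1.62 at hubs and 2.20 at others, and with counts divided by 2 it was 0.877 and 0.707. Hubs 2-fold or more higher at 24 h were 4 as listed (0.80%, against 2.44% of all anchors tested). Those lower were 52 (10.4%, against 38.8%). At a fold of 1.5 on the scaled degree, 313 of 500 hubs were higher and 26 lower. The share over all anchors at that fold was not computed, so these counts have no background.

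Alternatives chosen after seeing the data were run on the loops of 0 h found at 24 h. Extending the 24 h anchors by 5 kb gave 80.1%, 45.3% and 15.3% for hub-to-hub, hub-to-other and no-hub loops, both anchors listed 83.3%, 68.9% and 41.7%, and a 0 h count of at least 10 94.8%, 62.0% and 57.6%. A count of at least 4 in both lists gave 42.8% and 16.1% for the last 2 classes, and omission of chromosome 19 82.8% for the first. The order of the 3 classes was the same in each. The alternatives for gene starts and motifs were not run. No paired analysis was possible because each group held 1 library.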
